A study of Mus musculus with 3 samples.

Results

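The genes described here encode the SNARE proteins, their regulators and the exocyst, the machinery that docks and fuses membrane vesicles. They were chosen by symbol among protein-coding mouse genes. The rule took Vamp, Stx, Stxbp, Snap or Exoc followed by a digit, without the Snapc genes, and added Unc13d, Nsf, Napa, Ykt6, Vti1a and Vti1b. It found 53 genes, and 52 of them have a row among the 27179 gene IDs of the count table. Vamp9 has no row and was not analysed here. The rule also took in Snap91, which encodes the clathrin adaptor AP180 and is no SNARE.

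RNA was sequenced from group 2 innate lymphoid cells (ILC2s), tissue lymphocytes that secrete type 2 cytokines, sorted from 3 wild-type C57BL/6 mice. The cells carried CD45, CD90.2, CD127 and KLRG1, and the sort left out cells with B220, with the T cell proteins CD3, CD5 and CD8, with NK1.1, or with the myeloid proteins CD11b and CD11c. The mice form 1 group with no treatment or other genotype, so no condition could be compared, and each spread between mice also holds variation from the sort and the amplification. Neither the tissue nor the age of the animals is given in the sources used here. Libraries are called mouse 1, 2 and 3 after their sample numbers, and held 17819551 to 26374248 counts.

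A SNARE complex is a bundle of helices that draws a vesicle onto its target membrane. The vesicle commonly brings an R-SNARE, such as a VAMP. The target membrane brings a Qa syntaxin with Qb and Qc helices, which SNAP proteins carry together in 1 chain. Proteins of the Sec1/Munc18 family (Stxbp genes) guide syntaxins, the exocyst tethers vesicles to the plasma membrane, and the ATPase NSF with its attachment protein alpha-SNAP (Napa) takes spent complexes apart. T cells and innate lymphocytes use this route to release cytokines, and cytotoxic lymphocytes use Stx11, Stxbp2 and Unc13d to release granules.

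The libraries carried the transcripts of the labelled cell type. All 10 ILC2 markers of the fixed list, among them Gata3, Il1rl1 and Klrg1, were at 1 CPM or more in each mouse. Of these markers, Klrg1 and Il7r (the gene of CD127) encode proteins that the sort itself used. CPM are counts per 1000000 library counts, and a gene that reached 1 CPM in each of the 3 mice is called detected. Of 10 B and plasma cell markers 7 were detected, with a summed level of 12449.8, 34248 and 62639 CPM in mice 1, 2 and 3, while Ms4a1 and Pax5 had 0 counts. Immunoglobulin genes took 1.04%, 3.89% and 7.81% of the counts. The NK cell and ILC1 markers summed to 8.47, 244 and 55.4 CPM, with 2 of 7 detected. Most of each sum was Gzma (7.19, 229 and 48.2 CPM). Prf1 (0, 5.63 and 0.23 CPM) and Klrb1c (0.0441, 6.54 and 2.95) were low and also highest in mouse 2. Eomes and Tbx21 each had 1 count, in mouse 2. Epithelial markers (1 of 5 detected) summed to 9.78 to 29.4 CPM. Of 5 neuronal markers none was detected, and Tubb3, Rbfox3, Snap25 and Uchl1 had 0 counts. The part of these other cells in the levels below was not tested.

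Of the 52 genes with a row, 39 were detected (75%), against 31.1% of all gene IDs and 38.0% of protein-coding genes. A further 7 had counts but missed the minimum, and 6 had 0 counts in every mouse. Vamp7 is among these 6, and its zero cannot be read as absence, as described below. At the depths of these libraries a zero still allows 3 counts by counting error, which equal 0.132, 0.171 and 0.115 CPM in mice 1, 2 and 3. Together the genes made up 0.281%, 0.257% and 0.287% of the counts of mice 1, 2 and 3. Vamp8 and Napa alone supplied 38.5%, 39.6% and 40.9% of their summed CPM. Levels of different genes are compared below as CPM per kb of summed exon length. On that scale the detected genes had a median of 5.13, beside 5.33 for all 8049 detected genes with a length.

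The series concerns the circadian clock, and RefSeq promoters (GRCm38.p6, 250 bases before to 50 after the start) were matched for 44 of the 52 genes, 36 of them detected. For each gene the window nearest its RefSeq gene start was taken, and the start of a window can lie inside the gene. The bases before the window's start are shown for 4 genes: the most abundant R-SNARE, the most abundant SNAP, the syntaxin of lymphocyte granules and a neuronal syntaxin with 0 counts. Most of the Stx11 stretch lies inside the gene, which begins at 12964498 on the minus strand. The Snap23 stretch runs past the gene start at 120567655. CpG dinucleotides are in capitals.
Vamp8, chr6:72390668-72390917, minus strand: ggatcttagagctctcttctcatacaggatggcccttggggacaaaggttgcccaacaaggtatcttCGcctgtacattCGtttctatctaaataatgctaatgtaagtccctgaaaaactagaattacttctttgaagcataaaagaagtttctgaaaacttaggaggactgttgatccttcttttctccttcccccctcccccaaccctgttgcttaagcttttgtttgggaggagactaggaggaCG
Snap23, chr2:120567421-120567670, plus strand: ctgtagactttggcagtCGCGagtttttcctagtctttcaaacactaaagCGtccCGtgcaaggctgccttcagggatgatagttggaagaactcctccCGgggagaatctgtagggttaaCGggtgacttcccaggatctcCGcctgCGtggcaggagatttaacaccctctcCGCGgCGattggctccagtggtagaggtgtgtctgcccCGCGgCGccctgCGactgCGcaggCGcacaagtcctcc
Stx11, chr10:12964260-12964509, minus strand: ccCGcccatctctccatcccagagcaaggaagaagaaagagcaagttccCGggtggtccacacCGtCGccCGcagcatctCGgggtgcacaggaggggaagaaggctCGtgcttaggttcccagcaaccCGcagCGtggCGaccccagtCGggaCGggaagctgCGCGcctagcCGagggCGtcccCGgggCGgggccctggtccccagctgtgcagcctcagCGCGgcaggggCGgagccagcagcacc
Stx1a, chr5:135023232-135023481, plus strand: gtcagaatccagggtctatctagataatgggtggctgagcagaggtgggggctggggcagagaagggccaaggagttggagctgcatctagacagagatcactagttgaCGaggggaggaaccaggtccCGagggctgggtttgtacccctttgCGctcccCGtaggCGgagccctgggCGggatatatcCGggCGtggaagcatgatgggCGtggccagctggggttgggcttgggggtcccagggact
The Vamp8 sequence holds 3 CpGs, that of Snap23 17, that of Stx11 21 and that of Stx1a 9.

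Over the full 300 bases the 36 detected genes had a median of 23 CpGs, beside 22 for all 6681 detected genes with a promoter and 6 for the 11777 genes that were not detected. Vamp8 had 5, the fewest among the 36, and Stx7 with 9 came next. Stxbp5 had the most, with 47. The E-box CACGTG, the core of the sequence that the clock proteins CLOCK and BMAL1 bind, is the same on both strands. It lay in 6 of the 44 promoters (13.6%), those of Exoc1, Napa, Nsf, Stx6, Stxbp2 and Vamp4, beside 8.04% of all 18458 promoters of genes with a row and 11% of those of detected genes. The GC box GGGCGG, searched on both strands, lay in 30 of 44 (68.2%) beside 46% of all and 66% of those of detected genes. TATAAA on either strand lay in 1 (Stx3) beside 13.1% of all and 7.03% of those of detected genes. TGACGTCA lay in 2 (Napa and Stxbp3), or 4.55%, beside 2.34% of all and 3.86% of those of detected genes. Over the 36 detected genes alone the shares were 16.7% for CACGTG, 69.4% for GGGCGG, 0% for TATAAA and 5.56% for TGACGTCA. These matches describe letters in a window and not bound sites.

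Among the R-SNAREs of the rule Vamp8 stood apart. Vamp8 (chromosome 6, 72385221 to 72390667, mm10) encodes endobrevin, which acts on endosomes, lysosomes and secretory granules, and had 545, 672 and 549.6 CPM in mice 1, 2 and 3. Its level per kb was 255 ± 31.2 (SD, n = 3), at the 96.8th percentile of detected genes. It supplied 78.5 ± 4.04% of the summed CPM per kb of the 8 R-SNARE genes of the rule, with Vamp7 entered as 0. The values of the 3 mice lay close together, with a coefficient of variation of 12.2%.

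The remaining R-SNAREs of the rule, Vamp7 aside, lay on 4 steps per kb. Sec22b, an R-SNARE outside the rule, lay at 85.4 ± 6.86 CPM per kb, between Vamp8 and Vamp4 (28.1 ± 6.47). Vamp4, which cycles through the trans-Golgi network, had 156, 131 and 97.3 CPM and lay below Vamp8 by 3.20 ± 0.37 on the log2 scale. Vamp3, Vamp2 and Ykt6 followed at 13.4 ± 4.5, 12.1 ± 1.63 and 11.9 ± 3.73 CPM per kb, and their order changed between mice. Vamp3 and Vamp2 are the VAMPs of recycling endosomes and of regulated secretion at the plasma membrane, and the lipid-anchored Ykt6 serves the Golgi. Vamp3 had 48.6, 24.0 and 43.7 CPM, lowest in mouse 2, whereas Vamp2 had 39.1, 51.1 and 47.9, highest in mouse 2. Ykt6 had 48.4, 28.9 and 29.3 CPM, highest in mouse 1. The last steps were Vamp5 and Vamp1. Per kb of the longest coding transcript these 2 lay at 3.41 ± 1.37 and 2.17 ± 1.93, so the step between them depends on the length taken. Vamp5, a VAMP described in muscle, had 11.8, 4.89 and 10.1 CPM, and Vamp1, a synaptic VAMP, had 4.28, 13.1 and 2.19. Vamp5 lies 4752 bases from Vamp8 on chromosome 6, and per kb Vamp8 exceeded it 77.5-fold.

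Vamp7, an R-SNARE of lysosome secretion, had 0 counts in each mouse, but this zero cannot be read as absence. In the mm10 assembly Vamp7 lies on a scaffold that is assigned to chromosome X but not placed within its sequence. All 38 genes that have a row and lie on scaffolds outside the assembled chromosomes had 0 counts in every library, including the 3 on the scaffold of Vamp7.

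**Figure D1:**
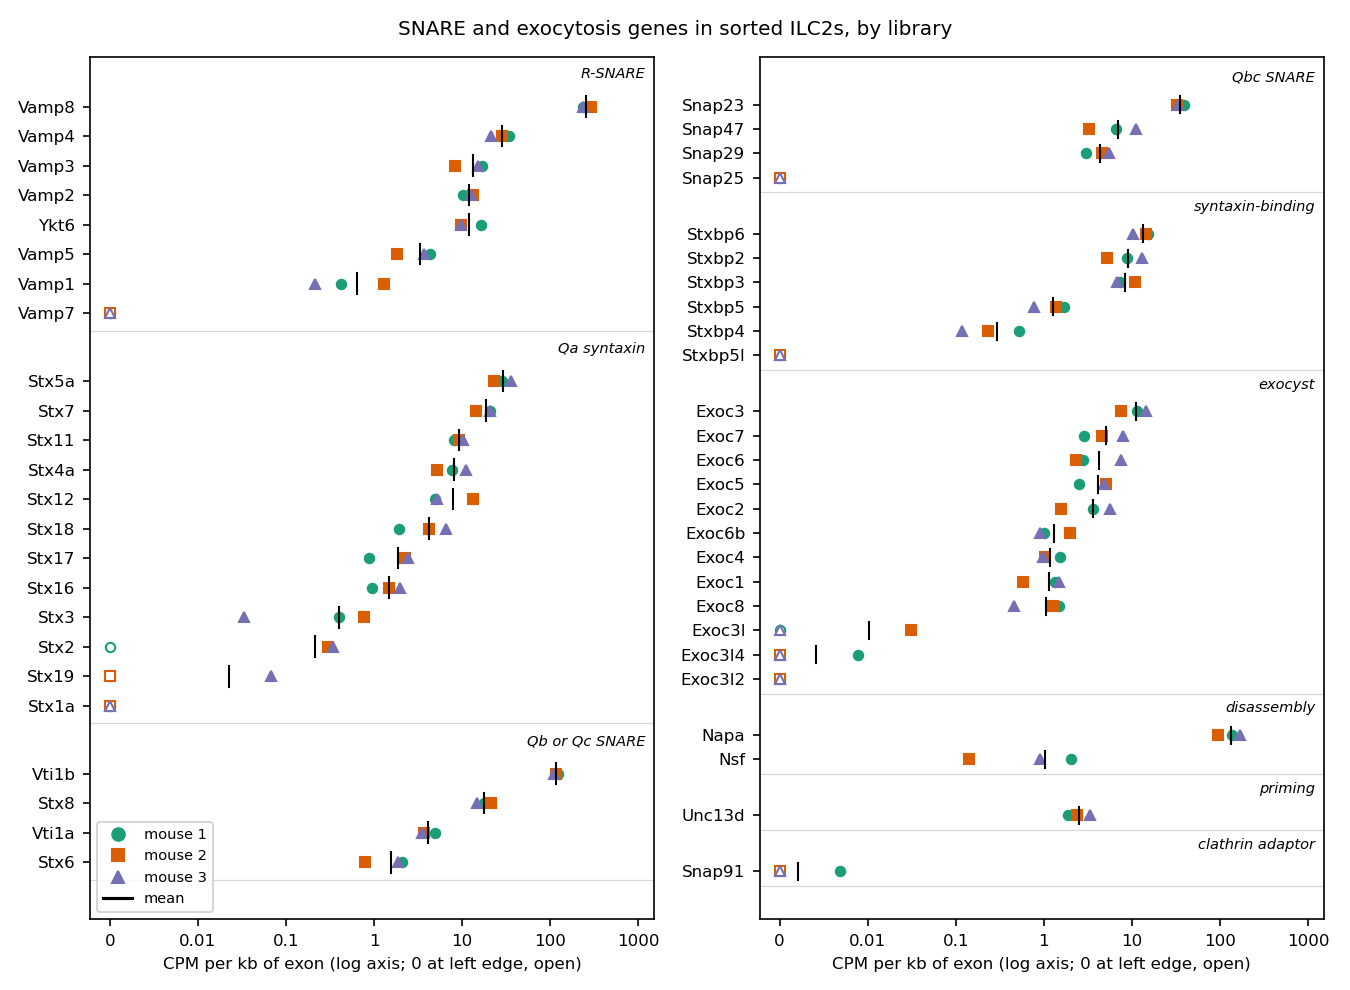
CPM per kb of exon (log axis, zeros drawn open at the left edge) for 50 of the genes in 3 libraries, by role, with the mean as a black bar. Vamp8, Napa and Vti1b lie above 90 CPM per kb in all 3 mice, and Nsf, Stx3 and Vamp1 spread widely between mice.

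Of 13 Qa syntaxins 8 were detected. Stx5a, the syntaxin of ER to Golgi traffic, was the highest, with 163, 133 and 207 CPM (28.9 ± 6.38 CPM per kb). Stx7 of late endosomes followed with 92.0, 64.1 and 93.4 CPM (18.6 ± 3.70 per kb). These values placed Stx5a above Stx7 in 3 of 3 mice (log2 difference 0.63 ± 0.17), and Stx7 above Stx11 by 1.00 ± 0.35.

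Stx11 (chromosome 10, 12938217 to 12964498), which lymphocytes use for granule release, had 34.0, 38.7 and 43.3 CPM, a coefficient of variation of 12.1%. Stx4a, the plasma membrane syntaxin, had 18.3, 12.2 and 26.6 CPM. Stx12 of recycling endosomes had 15.6, 42.3 and 16.6 CPM, so that mouse 2 stood above the others. Per kb these 3 genes lay at 9.19 ± 1.11, 8.05 ± 3.05 and 7.79 ± 4.74 and did not differ from each other beyond their spread between mice.

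Lower by mean per kb were the syntaxins of the ER, the autophagosome and the trans-Golgi network. The step from Stx12 to Stx18 did not exceed its spread (log2 difference 0.89 ± 1.08, in this order in 2 of 3 mice). Stx18 had 8.78, 19.3 and 30.4 CPM, Stx17 5.16, 13.5 and 14.6, and Stx16 3.79, 5.86 and 7.86, each lowest in mouse 1 and highest in mouse 3. Of the exon bases of Stx18, 32.3% are shared with genes on the opposite strand, Nsg1 and a predicted gene. The library kit does not mark strand, so such reads cannot be told apart, and Nsg1 itself had 0, 0.227 and 2.07 CPM.

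The other plasma membrane syntaxins were low or at 0. Stx3, the apical syntaxin of epithelium, had 2.29, 4.44 and 0.192 CPM, from 52, 78 and 5 counts, and Stx2 had 0, 1.36 and 1.57. Both thus missed the minimum in 1 mouse, mouse 3 for Stx3 and mouse 1 for Stx2. Stx19 had 5 counts in mouse 3 and 0 in the others. The neuronal syntaxin Stx1a had 0 counts.

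The 4 Qb and Qc SNAREs of the rule were all detected, and the pair that works on late endosomes was the higher. Vti1b (chromosome 12, 79156017 to 79172685) had 194, 188 and 179 CPM and Stx8 127, 152 and 104. Their partners at the trans-Golgi network were lower, Vti1a at 61.3, 46.0 and 43.3 CPM and Stx6 at 21.9, 8.42 and 19.6. Per kb the order was Vti1b (116 ± 4.66), Stx8 (17.9 ± 3.38), Vti1a (4.08 ± 0.788) and Stx6 (1.57 ± 0.680), and all 3 neighbouring steps held in 3 of 3 mice beyond their SD. Vti1b varied by 4.01% between mice. It shares 17.7% of its exon bases with Arg2 on the opposite strand, and Arg2 had 0 to 0.307 CPM. Vamp8, Stx7, Vti1b and Stx8 are known to form the SNARE complex of late endosomes. Among the genes of the rule each was the highest or the next highest of its role per kb. Qb or Qc SNAREs outside the rule lay above Stx8 per kb, with Use1 at 79.6, Gosr2 at 38, Gosr1 at 36.6 and Bet1 at 34.1. The late endosome set was singled out after its values were seen.

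Snap23, the SNAP protein of non-neuronal cells, supplied 76.1 ± 7.73% of the summed CPM per kb of its 4-gene role. Snap23 (chromosome 2, 120567655 to 120601255) had 168, 141 and 144 CPM. Snap47 had 17.5, 8.59 and 29.1 CPM and Snap29, which acts in endosomal and autophagosome fusion, 10.5, 15.6 and 18.8. These 2 genes changed order between mice, and 11.6% of the exon bases of Snap47 are shared with Jmjd4 (4.67 ± 3.61 CPM). The neuronal Snap25 had 0 counts, so Snap23 was at least 639-fold higher in every mouse, against a floor of 3 counts per library. This is the lowest bound over 3 choices of length, which gave 639 with the longest coding transcript, 825 without length and 1305 with summed exons. Snap91 had 1 count in mouse 1.

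Among the syntaxin-binding genes 5 of 7 were detected. Stxbp6, which encodes amisyn, a SNARE regulator, was the highest by mean, with 80.2, 76.0 and 54.9 CPM. Stxbp2, the partner of Stx11, had 36.9, 21.4 and 54.7 CPM and Stxbp3, the partner of Stx4, 39.2, 58.1 and 36.4. Stxbp2 was lowest in mouse 2, where Stxbp3 was highest. Per kb the 3 genes lay at 13.3 ± 2.56, 9.05 ± 4.01 and 8.34 ± 2.22, and no neighbours in this order differed beyond their spread. Per kb of the longest coding transcript Stxbp3 (18.4) lay above Stxbp6 (15.5) and Stxbp2 (12.9), so the first rank of Stxbp6 depends on the length taken.

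The tomosyn gene Stxbp5, whose product occupies syntaxins without driving fusion, had 27.7, 22.6 and 12.8 CPM. Stxbp4, which binds Stx4, had 6.22, 2.79 and 1.38. Both were highest in mouse 1 and lowest in mouse 3. Stxbp5l, a paralogue of Stxbp5, had 0 counts.

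The disassembly factors were unequal. Napa (chromosome 7, 16098202 to 16117982) had 512, 359.9 and 637 CPM, or 133 ± 36.7 per kb. Nsf (chromosome 11, 103821782 to 103954056), the ATPase that alpha-SNAP recruits, had 16.8, 1.19 and 7.63 CPM, from 380, 21 and 199 counts. Per kb Napa exceeded Nsf in 3 of 3 mice (log2 difference 7.66 ± 1.66). Both genes were lowest in mouse 2, which was also the shallowest library, and the cause was not tested. Unc13d, which primes lymphocyte granules for fusion, had 8.69, 11.1 and 15.6 CPM (2.52 ± 0.746 per kb), and the 3 values lay within a 2-fold range.

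All 9 genes of the exocyst subunits, Exoc1 to Exoc8 and the paralogue Exoc6b, were detected. The exocyst has 8 subunits, so their levels were compared per kb with Exoc6 and Exoc6b added together. Exoc3 was the highest in each mouse, at 11.4, 7.60 and 14.6 CPM per kb. The lowest was Exoc1 in mice 1 and 2 and Exoc8 in mouse 3. The ratio of the highest to the lowest subunit was 8.54, 13.0 and 31.8 (17.8 ± 12.4; 10.8 without mouse 3), and the coefficient of variation over the 8 subunits 92.9%, 76.9% and 86.4%. When lengths were taken from the longest coding transcript instead, Exoc3 was again the highest in 3 of 3 mice and Exoc8 the lowest in 3 of 3. Without length, Exoc5 was the highest in mouse 2 (90.1 CPM beside 45.6 for Exoc3) and by mean (73.8 beside 67.2), so the rank of Exoc3 in every mouse holds per kb only.

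The subunits did not move together between mice. Exoc2 had 25.0, 11.0 and 38.9 CPM, Exoc3 68.5, 45.6 and 87.6, Exoc6 9.88, 8.30 and 26.3 and Exoc1 16.1, 7.05 and 17.8, each lowest in mouse 2 and highest in mouse 3. Exoc5 (45.4, 90.1 and 85.8 CPM) and Exoc6b (15.3, 30 and 13.7) were highest in mouse 2. Exoc4 (19.1, 13.2 and 12.2) and Exoc8 (6.79, 5.80 and 2.11) were highest in mouse 1, and Exoc7 (12.5, 19.7 and 35) was lowest there. Of the 8 neighbouring steps in the order of the 9 genes per kb, only that from Exoc3 to Exoc7 exceeded its spread, by 1.20 ± 0.69 on the log2 scale. Of the exocyst-like genes, Exoc3l had 2 counts, Exoc3l4 1 and Exoc3l2 0.

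**Figure D2:**
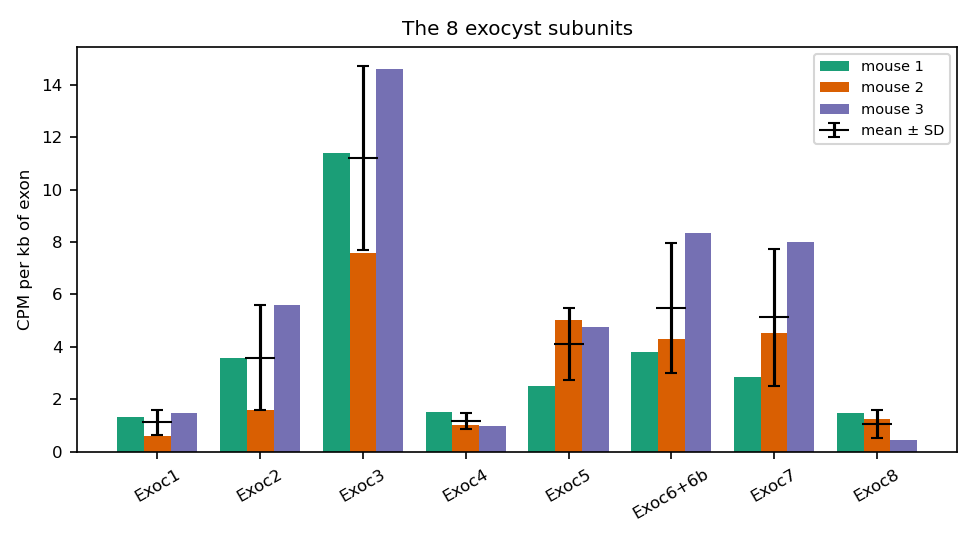
CPM per kb of exon for the 8 exocyst subunits, Exoc6 and Exoc6b added; bars are the 3 mice, and black marks the mean ± SD. Exoc3 is the highest in each mouse, between 7.60 and 14.6.

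Paralogues were then set side by side within each library, in 17 pairs. The genes of a pair need not serve the same step. Vti1b and Stx8, for example, work on late endosomes, and Vti1a and Stx6 at the trans-Golgi network. The values are log2 differences of (CPM + 0.5) per kb, as mean ± SD (n = 3 mice). The test was an exact sign-flip permutation test, two-sided, whose smallest possible p with 3 libraries is 0.25, and a pair therefore cannot pass 0.05. In 14 pairs both genes had counts, and in 12 of these the direction was the same in 3 of 3 mice, each with that smallest exact p of 0.25, before any adjustment over the pairs.

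The widest differences per kb of summed exons were Napa over Napg, its gamma paralogue, by 6.02 ± 0.38, and Vti1b over Vti1a by 4.84 ± 0.21. With the longest coding transcript as length they were 5.34 and 3.39, and without length 4.84 and 1.90. Vamp8 exceeded Vamp3 by 4.29 ± 0.71, Vamp4 exceeded Vamp5 by 3.08 ± 0.71, Stx8 exceeded Stx6 by 3.57 ± 0.96, Snap23 exceeded Snap29 by 3.01 ± 0.54 and Stx5a exceeded Stx18 by 2.88 ± 0.80. For 3 of these the longest coding transcript gave wider differences, 3.76 for Vamp4, 3.67 for Snap23 and 3.63 for Stx5a. These 7 pairs each kept their direction in 3 of 3 mice and exceeded their SD at least 3-fold.

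Several differences moved more with single libraries. Stx4a exceeded Stx3 by 4.41 ± 1.99 (3.33 without mouse 3, 5.30 without mouse 2). Stx7 exceeded Stx12 by 1.37 ± 1.09 (2.00 without mouse 2). Exoc6 exceeded Exoc6b by 1.60 ± 1.36 (0.90 without mouse 3, 2.25 without mouse 2) on union exon lengths, but by only 0.12 with the longest coding transcript, and without length the difference was -0.49. Stx11 minus Stx7 was -0.99 ± 0.35 and kept its sign without each mouse in turn, between -1.17 and -0.82.

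In 2 pairs the direction differed between mice. Vamp3 minus Vamp2 was 0.71, -0.68 and 0.27 in mice 1, 2 and 3 (0.10 ± 0.71, exact sign-flip p = 0.75). Stxbp2 minus Stxbp3 was 0.27, -1.06 and 0.94 (0.05 ± 1.02, exact p = 1.0). In both pairs mouse 2 had the opposite sign to mice 1 and 3. In the 3 remaining pairs the second gene had 0 counts. Unc13d was at least 65-fold higher than Unc13b in every mouse without length, and the bound was 237 with the longest coding transcript and 316 with summed exons. Snap23 over Snap25 is given above. No fold is given for Vamp8 over Vamp7.

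**Figure D3:**
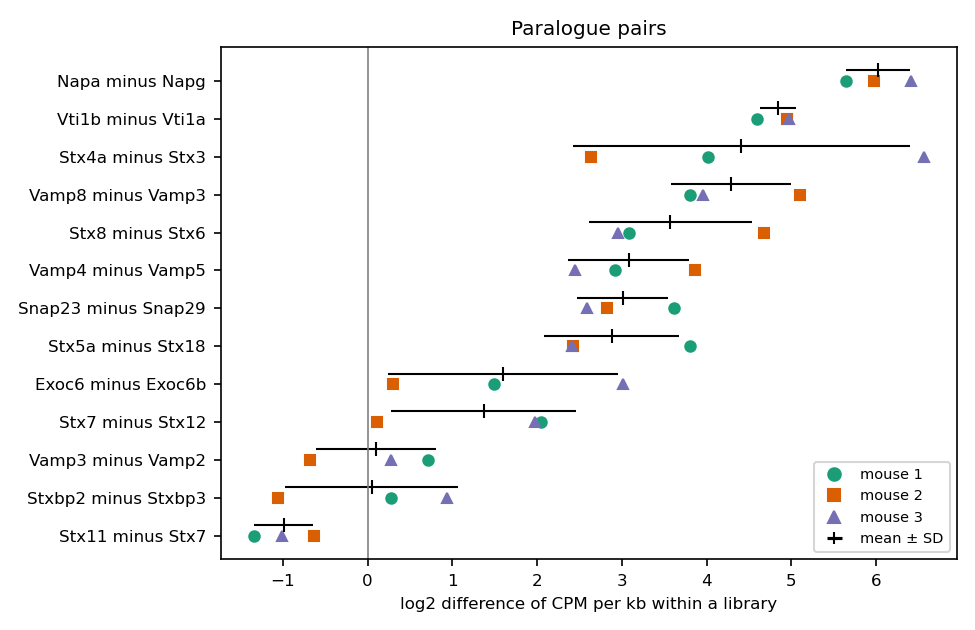
Log2 difference of CPM per kb between the paralogues of 13 pairs, with a symbol for each mouse and mean ± SD in black. Vamp3 minus Vamp2 and Stxbp2 minus Stxbp3 straddle 0, and only Stx11 minus Stx7 lies below 0 in all 3 mice.

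The differences between mice were tested across the whole table with edgeR (quasi-likelihood fit with an intercept, upper-tail F test of each gene's dispersion against the abundance trend, Benjamini-Hochberg adjustment over all genes). Of 9175 genes tested, 19 were more variable than the trend (0.207%). None of the 39 tested members was among them, and the lowest adjusted p of a member in this edgeR test was 0.977. Without adjustment 1 member, Nsf, passed 0.05, beside 4.37% of all genes tested. Its log2 ratio to the trend was 2.22, and its adjusted p in edgeR was 0.977 and ranged from 0.697 to 0.993 over the alternatives. limma variances and DESeq2 dispersion outliers called 0 members too. A p that misses the threshold does not show that the mice were alike.

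The tested members are not all members, since a gene had to reach the count filter to be tested. Their median coefficient of variation was 33.6%, beside 30.2% for all genes tested, and the common biological coefficient of variation of the fit was 45.1%. Of the 39, 19 lay below the trend. The median log2 ratio of the 39 was 0.0822, beside -0.417 for all genes tested. The farthest below the trend were Vti1b (log2 ratio -4.59), Stx11 (-2.65), Snap23 (-2.19), Vamp2 (-2.07), Exoc4 (-1.77), Unc13d (-1.46) and Vamp8 (-1.44). The farthest above it, after Nsf, were Exoc2 (1.47), Stx12 (1.30), Vamp1 (1.30), Exoc5 (1.24), Stxbp2 (1.16) and Stx18 (1.13). The highest mouse was at least 2 times the lowest for 20 of the 39 (51.3%), beside 42.1% of all genes tested.

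By mouse, 16 of the 39 (41%) were lowest in mouse 2, beside 36.9% of all genes tested, 11 in mouse 1, beside 29.2%, and 12 in mouse 3, beside 33.8%. The highest mouse was mouse 3 for 17 (43.6%), beside 34.2%, mouse 1 for 14, beside 32.2%, and mouse 2 for 8 (20.5%), beside 33.5%. The order mouse 1 below mouse 2 below mouse 3, which the immunoglobulin share also has, was shown by 7 members, Exoc7, Snap29, Stx11, Stx16, Stx17, Stx18 and Unc13d. That is 17.9% of the 39, beside 14.1% of all genes tested, and whether RNA of plasma cells has a part in it was not tested.

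**Figure D4:**
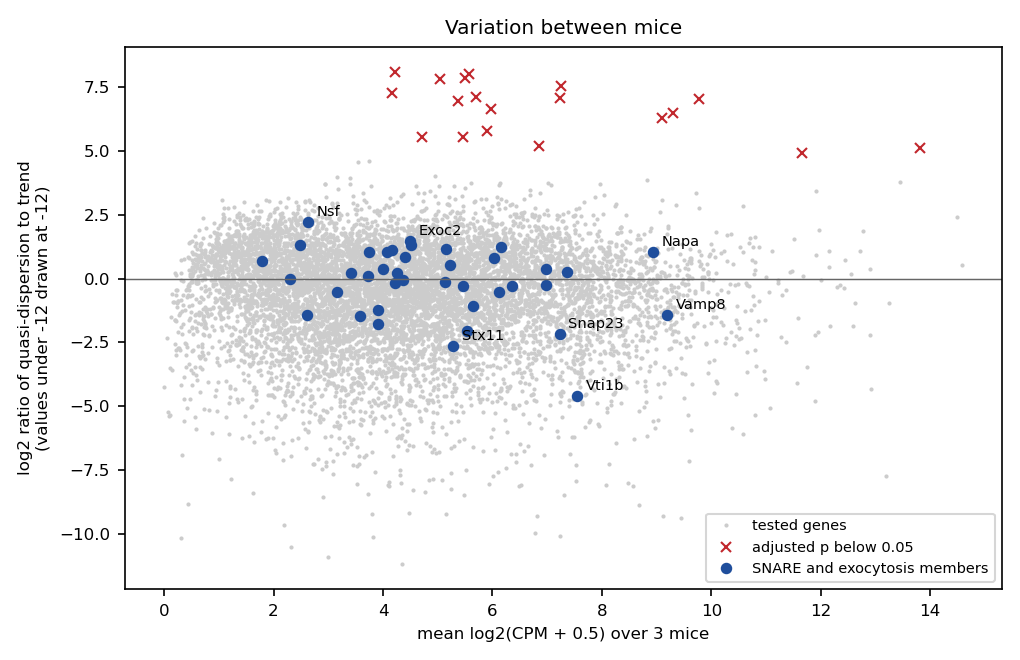
Log2 ratio of each gene's quasi-dispersion to the abundance trend against mean log2(CPM + 0.5) for the 9175 tested genes, with the 39 members in blue and the 19 called genes as red crosses. The members lie between -4.59 (Vti1b) and 2.22 (Nsf), and no called gene is a member.

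Other genes of the pathway came from lists that were not trimmed by level. Of 9 further SNAREs, those of the ER and Golgi, 8 were detected, among them Sec22b (309, 360.4 and 349 CPM), Use1 (181, 197 and 149) and Gosr1 (159, 169 and 142). Of 7 Sec1/Munc18 proteins and NSF attachment proteins 5 were detected, among them Scfd1 (127 ± 32.2 CPM), the partner of Stx5, with Vps33a at 23.1 ± 4.53 and Napg at 17.1 ± 5.10. Napb, the neuronal attachment protein, had 0 counts.

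Of 23 priming and docking genes 3 were detected, beside 38.0% of protein-coding genes: Sytl3 (228, 157 and 222 CPM), Rab27b (115, 88.2 and 88.9) and Sytl2 (14, 15.8 and 3.22). Of the other genes of the Sytl family, Sytl1 had 2.91, 0.796 and 1.04 CPM, Sytl4 had 1 count and Sytl5 0. Rab27a, the RAB of cytotoxic granules, had 3.57, 1.31 and 0.153 CPM. No gene of 21 synaptotagmins and complexins, the calcium sensors and clamps of synaptic release, was detected, and 15 of them had 0 counts. Of 10 exocyst regulators 8 were detected, among them Rab8b (633 ± 97.6 CPM), Rab11a (614 ± 87.6) and Rab10 (173 ± 34.5).

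The machinery was last compared with the genes whose symbol is Rab followed by a digit, the GTPases that direct vesicles to it, with some effectors and interacting proteins, such as the Rab11fip genes and Rab5if, that the symbol rule takes in. Of these 69 genes 38 (55.1%) were detected, beside 39 of the 52. The median log2(CPM + 0.5) of the SNARE and exocytosis genes was higher in 3 of 3 mice, by 0.98, 0.80 and 1.21 (0.99 ± 0.20; exact two-sided sign-flip p = 0.25, the smallest possible). Per kb the difference was 0.55, and with means in place of medians 0.45. Among genes of both lists at 1 CPM in some library the difference was -0.09; the genes below that level were left out of it.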

How the data were processed

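RNA-seq counts of 3 ILC2 libraries were used. The deposited table holds raw counts per Entrez gene ID, with no normalization by the authors. CASAVA 1.8.2, STAR 2.3.0 and mm10 are named per the submitters' processing notes, and cDNA came from a SMARTer kit for small inputs per the labels' protocols. The counting program, and how it handled multi-mapped reads, is not given in the sources used here. Symbols came from RefSeq GRCm38.p6 (25275 of 27179 IDs matched; the unmatched held 0.186% to 0.242% of counts) and summed exon lengths from GENCODE M21. CPM were computed on TMM-scaled library sizes (factors 1.03, 0.987 and 0.989) in edgeR 4.0.16 under R 4.3.3. Counts of at least 10 were asked by filterByExpr before the variability test, which was tested on simulated data. limma 3.58.1 and DESeq2 1.42.0 were alternatives, with other minima, pseudocounts, lengths and library sizes, and each mouse left out. Full-length cDNA without molecular identifiers means that intervals and floors cover counting error only, and that lengths of the isoforms in use were not measured. The series has 1 group, so levels are described within libraries. Members with a row are named, except a few items that are not reported here, and of the wider lists the 3 highest by mean CPM and those of the fixed pairs, with Rab27a, the Sytl genes not detected and the uneven genes of the closing section added after their values were seen. The members, lists and tests were chosen with earlier results of these data known.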

Additional observations from a re-analysis of the deposited data

How the results depend on the processing

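No paired analysis was possible because all libraries belong to a single group. The length from the longest coding transcript was chosen after seeing the data. Over the alternatives the main results held in 61 cases, moved in 7 and reversed in 1, and the values of single genes and pairs held in 843, moved in 78 and reversed in 8. A result could change and still count as held. Examples are 33 detected members in place of 39, and an exocyst ratio of 10.8 in place of 17.8. The median level of the 52 genes, 2.74 CPM per kb, was 4.59 with the longest coding transcript and 15.8 as CPM without length, where the scale itself differs. The coefficient of variation over exocyst subunits, 85.4%, was 67.2% with the longest coding transcript. The 19 more variable genes became 0 with a robust prior (388 at an unadjusted p below 0.05 in edgeR) and 14 to 31 without each mouse in turn (31 without mouse 1), and the cause was not tested. The difference from the RAB genes, 0.99, was 0.45 with means, 0.55 per kb and -0.09 among genes at 1 CPM in some library. Without length, the pairs Vamp3 minus Vamp2 (-0.30), Stxbp2 minus Stxbp3 (-0.31) and Exoc6 minus Exoc6b (-0.49) reversed. The first 2 also reversed with the longest coding transcript (-0.24 and -0.57), a length that Vamp7 lacks. Without each mouse in turn they ran from -0.20 to 0.49 and from -0.39 (without mouse 3) to 0.61, with -0.06 for the second without mouse 1. Leaving out a mouse gave 39 to 41 detected members, and a minimum of 5 CPM gave 33. Depth limits statements on genes with 0 counts, other than Vamp7, to 3 counts per library.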

Other observations

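Some genes of the wider lists were uneven between the 3 libraries, and were chosen after their values were seen. Syt5 had 103, 0 and 0 counts in mice 1, 2 and 3, whereas Syt11 had 0, 0 and 144. Both encode synaptotagmins. Lyst, whose loss enlarges lysosomes and granules, had 0, 14 and 120 counts. Rab3d, a RAB of secretory granules, had 93, 0 and 63. Scfd2, of the Sec1/Munc18 family, had 0.0441, 10.7 and 13.1 CPM, and Rhoq, a GTPase that binds the exocyst, had 11.9, 0.796 and 8.94.

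These uneven genes were low on average, from 1.51 CPM for Syt5 to 7.95 for Scfd2. The mast cell and granulocyte marker list, 3 of 5 detected, summed to 23.8, 37.0 and 24.9 CPM, with Mcpt8 and Ms4a2 at 0 counts. The myeloid list (1 of 7 detected) summed to 21.1, 36.8 and 22.6 CPM, with Adgre1, S100a8 and S100a9 at 0. The T cell list (3 of 6 detected) summed to 20.0 to 25.3 CPM. The part of such cells in these uneven genes was not tested.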
